A study of Rattus norvegicus with 24 samples.

Results

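Mesenteric arteries, which carry blood to the gut of the rat, were compared between ovariectomised females given estradiol benzoate and ovariectomised females given vehicle. All arrays titled E (estradiol benzoate) and C (vehicle) were taken, 16 of the 24 arrays in the series, or 8 of its 12 animals. Every rat was a female Sprague Dawley whose ovaries had been removed at 3 weeks of age, and all had 2 weeks of recovery. Intraperitoneal injections then followed once a day for 4 days, so that tissue came from rats of 5.5 weeks. Vehicle rats (animals 3, 4, 5 and 8) received sesame oil. Estradiol benzoate rats (animals 2, 3, 5 and 8) received 0.15 mg/kg/day of this slowly released ester of estradiol. A further 4 rats given testosterone at 1 mg/kg/day entered the model to estimate the spread and serve once as a comparison at the end. They also entered the filter of probes, the mean intensity of each probe and the means of the 12 animals used below. Because every group lacked ovaries from 3 weeks of age, vehicle stands for young rats without ovaries and not for an intact cycle. All dissection of the arteries from fat, veins and connective tissue took place in RNAlater, and each animal's cRNA went onto a pair of one-colour CodeLink oligonucleotide arrays, titled AA and AB. Nothing in the labels says whether RNA of several rats was pooled.

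Estradiol acts through the nuclear receptors ESR1 and ESR2, which bind DNA or other transcription factors, and through the membrane receptor GPER1, which signals within the cytoplasm. In arteries these receptors are found in endothelium and smooth muscle, and estrogens are known for relaxing arteries through nitric oxide and prostacyclin, for restraining the renin-angiotensin system and endothelin, and for limiting growth of the vessel wall. Estradiol also acts on the fat, nerves and immune cells around an artery, and in a homogenised vessel the RNA of all these cells is measured together.

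Array medians of the deposited intensity lay between 0.926 and 0.948 on the 16 arrays, and between 152 and 665 spots per array were blank. The test covered 10228 of 10399 probes, those measured in 3 or more animals per group. Probes with a single gene symbol numbered 7294, of which 7172 were tested and stood for 6371 of 6455 genes. Where a gene had several probes, the brightest stood for it. Differences below are log2 differences of group means (estradiol benzoate minus vehicle) with the standard error (SE) and adjusted p of the limma fit. Intensities are on the deposited linear scale and compare animals, not genes. Vessel identity rested on few markers: only 2 of 8 smooth muscle markers and 4 of 7 endothelial ones had a tested probe, and Acta2, Myh11, Tagln, Cdh5 and Nos3 had none. The smooth muscle gene Cnn1 and the endothelial gene Pecam1 were both in the brightest 1% of probes, at 28.2 to 47.4 and 23.3 to 34.0 over the 8 animals.

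The comparison asked how the arterial transcriptome of ovariectomised rats differs after 4 days of estrogen. Differences were small for most genes. The middle 90% of genes lay between -0.45 and 0.45, and 92.3% of genes lay within 0.5 of no difference. None of the 10228 probes (0%) passed an adjusted p under 0.05 in limma, the smallest adjusted p was 0.0770, and 5 probes were under 0.1. The words higher and lower below therefore give the direction of a measured difference that did not pass. At an unadjusted p under 0.05, 444 of 6371 genes were higher (6.97%) and 424 lower (6.66%). The 4 estradiol benzoate animals lay entirely above the 4 vehicle animals in 235 of the 6274 genes with all 8 values (3.75%) and entirely below them in 292 (4.65%). For a single gene, 0.0286 is the smallest two-sided p that an exact permutation of 4 against 4 animals can give, and every gene whose groups did not overlap has it. Both conditions held for 417 genes. The 692 higher and 684 lower probes of all 10228 became 462 and 454 without estradiol benzoate animal 3. These percentages are the background against which the gene groups below are read.

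**Figure D1:**
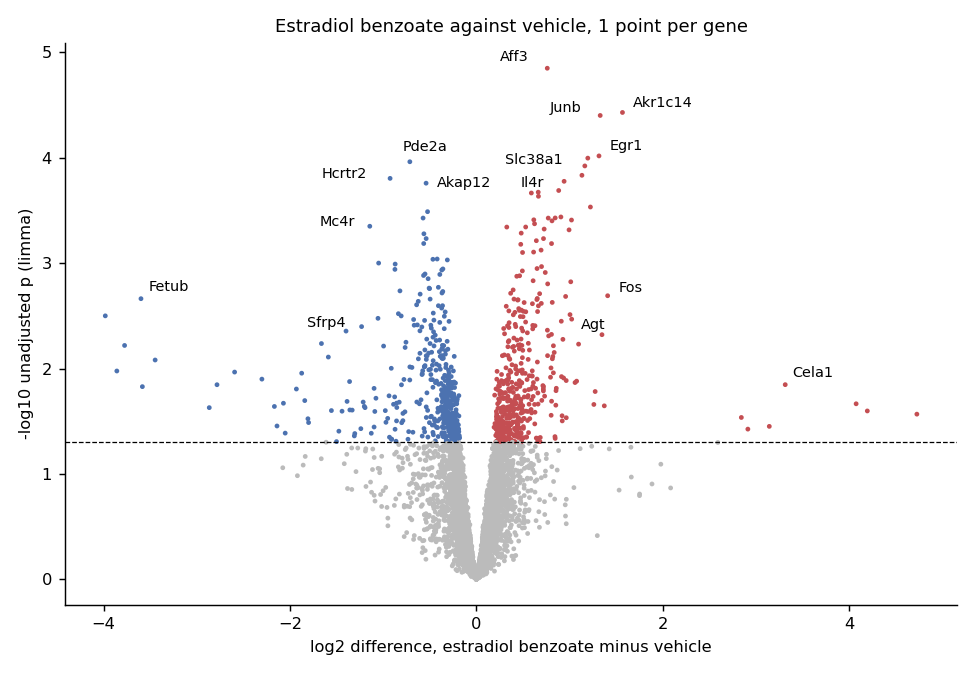
Each point is 1 of 6371 genes, with the log2 difference (estradiol benzoate minus vehicle) on the x axis and -log10 of the unadjusted limma p on the y axis. Red and blue points are the 444 higher and 424 lower genes beyond the dashed line at 0.05, and the largest differences, such as Cela1 and Fetub, are not those with the smallest p.

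The direction of a difference depended on brightness. Among the dimmest 25% of genes, 176 were higher and 110 lower at an unadjusted p under 0.05, and among the brightest 25% 67 were higher and 149 lower. The median difference went from 0.07 in the dimmest 25% over 0.03 and -0.03 to -0.07 in the brightest. After quantile normalization, which gives all arrays the same distribution, the brightest 25% had 107 higher and 71 lower genes. Centring arrays on the 75th percentile turned the 692 higher and 684 lower probes into 881 and 526, or 62.6% higher in place of 50.3%. The brightest spot measured 47.4 to 52.7 on the arrays of estradiol benzoate animals 3, 5 and 8, 56.5 to 81.3 on vehicle arrays, and 71.3 and 82.5 on those of estradiol benzoate animal 2. On testosterone arrays the brightest spot measured 48.2 to 75.9. The part of these brightest spots in the split between higher and lower genes was not tested. Small shifts of groups of bright genes, such as ribosomal and matrix genes, are given below with their value after quantile normalization. The groups with the largest shifts kept their sign under both scalings, which their size alone made likely.

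**Figure D2:**
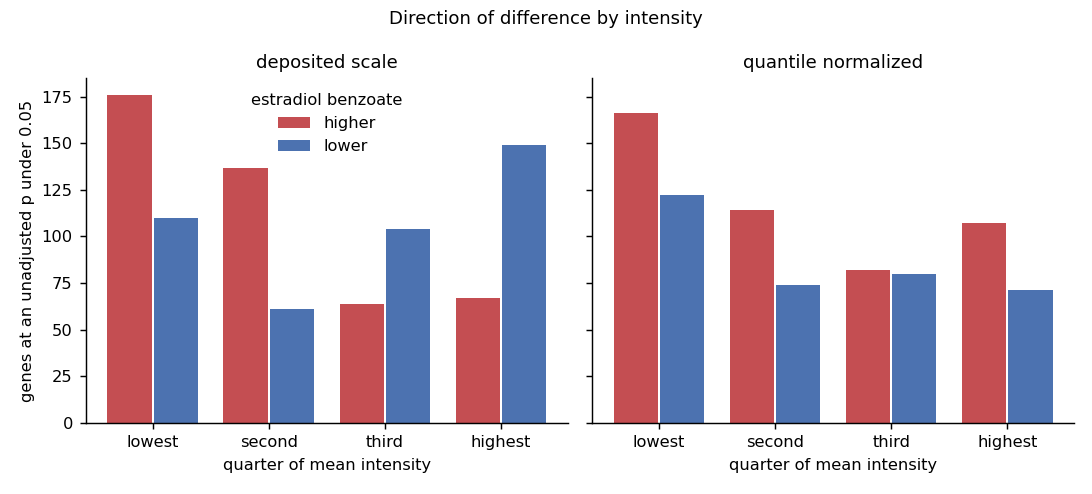
Bars count genes at an unadjusted p under 0.05 that were higher (red) or lower (blue) with estradiol benzoate, in 4 classes of mean intensity from dimmest to brightest. On the deposited scale (left) the brightest class had 67 higher and 149 lower genes, and after quantile normalization (right) 107 and 71.

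Both technical arrays of an animal gave like differences. Over 5056 genes with values on all 16 arrays, the difference from the AA arrays correlated with that from the AB arrays at r = 0.767 across genes, which share animals and are not independent. Of the 675 genes among them at an unadjusted p under 0.05, 674 had the same sign on both. That p came from the mean of both arrays, so the selection largely set this agreement, and it is no separate evidence. Different probes of a gene matched less well: of 741 genes with several probes, the brightest pair had the same sign in 443, and in 71 of the 103 whose leading probe was at an unadjusted p under 0.05.

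Among genes of steroid action, the steroid enzyme Akr1c14 had the smallest p. Akr1c14, a 3-alpha-hydroxysteroid dehydrogenase that reduces dihydrotestosterone and progesterone metabolites, measured 0.834, 1.32, 1.46 and 1.97 in vehicle animals 3, 4, 5 and 8 and 3.16, 4.67, 3.55 and 4.69 in estradiol benzoate animals 2, 3, 5 and 8. The lowest treated animal lay well above the highest vehicle animal, and the gene was 2.97-fold higher (1.57, SE 0.24, adjusted p 0.0941). Hsd11b2, which inactivates glucocorticoids, measured 0.860, 0.634, 0.762 and 0.528 with vehicle and 0.331, 0.359, 0.546 and 0.181 with estradiol benzoate. The groups overlapped, with a difference of -1.05 (SE 0.29, adjusted p 0.195). A dimmer second probe gave -0.38. Of 16 steroid enzymes, 2 were higher and 1 lower at an unadjusted p under 0.05, with a median of -0.03 (0.06 after quantile normalization). Cyp11a1, which starts steroid synthesis from cholesterol, was the other higher one (0.85, SE 0.38), at 1.25 in estradiol benzoate animal 3 and at 0.304 to 0.392 in the other treated animals. Sult1a1, a phenol sulfotransferase listed among glucocorticoid-responsive genes, measured 3.75, 4.06, 5.46 and 5.17 with vehicle and 7.39, 7.26, 6.52 and 9.07 with estradiol benzoate, without overlap (0.72, SE 0.15, adjusted p 0.129). It was the only one of 12 glucocorticoid-responsive genes at an unadjusted p under 0.05.

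Of 8 genes on the list of steroid receptors and related nuclear receptors, Gper1 was lower at an unadjusted p under 0.05. Nr0b1, a related receptor on a dim probe, was higher. Gper1 measured 0.0848 to 0.0982 with vehicle and 0.0553 to 0.0796 with estradiol benzoate, without overlap (-0.38, SE 0.14, adjusted p 0.311), on a dim probe. Esr1 measured 0.181 to 0.213 with vehicle and 0.181 to 0.222 with estradiol benzoate on its brighter probe, with overlap, while its second probe gave -1.21 (SE 0.46). Both Esr1 probes were among the dimmest 25%, so the array did not settle its direction. Esr2 measured 0.771 to 0.883 with vehicle and 0.639 to 0.909 with estradiol benzoate, and the groups overlapped. Of 20 genes listed as estrogen targets in other tissues, 2 were higher and 1 lower, 17 had no such difference, and the median was -0.02 (0.02 after quantile normalization), close to that of all genes. The higher ones were Fos and Tgfa, a ligand of the epidermal growth factor receptor. Tgfa measured 0.0506 to 0.0790 with vehicle and 0.0866 to 0.117 with estradiol benzoate, without overlap (0.85, SE 0.17, adjusted p 0.125), on a dim probe. The lower one was Sfrp4, a secreted Wnt antagonist, which measured 0.715, 0.727, 0.792 and 1.06 with vehicle and 0.377, 0.239, 0.679 and 0.235 with estradiol benzoate. Its groups were separate although animal 5 came close to vehicle (-1.23, SE 0.34, adjusted p 0.203).

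Immediate early genes, which are switched on within minutes of a stimulus and many of which encode transcription factors, differed more than most groups. Of 25 measured, 10 were higher and 1 lower at an unadjusted p under 0.05, and in 7 of the 23 with all 8 values the groups lay apart, all higher. The median was 0.29 (0.34 after quantile normalization), against a median over all genes within 0.03 of 0 under each scaling. With only the probes that had a value on all 24 arrays, the median of the list was 0.16. Without vehicle animal 5 and estradiol benzoate animal 3, the animals with most liver and pancreas RNA, 8 were higher and 1 lower and the median was 0.38. Junb, a subunit of AP-1, measured 0.141, 0.210, 0.174 and 0.206 with vehicle and 0.492, 0.580, 0.416 and 0.359 with estradiol benzoate. Egr1, a zinc finger factor of growth and injury responses, measured 0.202, 0.211, 0.202 and 0.25 with vehicle and 0.428, 0.748, 0.506 and 0.510 with estradiol benzoate. In both genes every treated animal was well above every vehicle animal, at 2.51-fold (SE 0.21, adjusted p 0.0941) and 2.49-fold (SE 0.23, adjusted p 0.122), with SE on the log2 scale.

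Fos, the partner of Junb in AP-1, measured 2.67, 2.69, 2.85 and 4.37 with vehicle and 4.97, 16.3, 4.93 and 11.2 with estradiol benzoate. The groups did not overlap, though animals 3 and 8 carried much of the difference of 1.41 (SE 0.36), and a second probe gave 1.09. Fosb (1.13, SE 0.20, on a dim probe), Ier2 (0.61, SE 0.15) and Csrnp1 (0.50, SE 0.11) were higher without overlap as well. Arc, Zfp36, Atf3 and Klf10, named here after their values were seen, completed the higher members with 0.91, 0.65, 0.51 and 0.44. Of these, Arc was on a dim probe. The exception was Klf6, also named after its value was seen, at -0.41 (SE 0.16). As a mean over the list, vehicle animals lay between -0.21 and -0.13 from the mean of the 12 animals and estradiol benzoate animals at 0.02, 0.37, 0.13 and 0.28. Of 17 genes listed as MAP kinase phosphatases or feedback regulators, 2 were higher, Cish (0.49, SE 0.12, on a dim probe) and Gadd45a (0.24, SE 0.10), and 0 lower. Their median was 0.07, but 0.16 after quantile normalization and 0.16 without estradiol benzoate animal 3, 0.15 without vehicle animal 8 and 0.22 without vehicle animal 5 and estradiol benzoate animal 3.

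The promoters of these genes are shown because serum response factor, which binds the CArG box, and CREB, which binds the cyclic AMP response element (CRE), are textbook regulators of immediate early genes. Ier2 and Zfp36 were chosen for a match, Egr1 and Junb as the members with the smallest p, and Akr1c14 as the steroid enzyme. Sequences are the 250 bases before the start site in RefSeq for the rat build GRCr8, read 5′ to 3′ on the strand of the gene, with matches in capitals. Egr1 lies at chr18:26736828-26737077 (plus strand), Junb at chr19:40080876-40081125 (plus strand), Ier2 at chr19:40399123-40399372 (plus strand), Zfp36 at chr1:92799109-92799358 (minus strand) and Akr1c14 at chr17:71083185-71083434 (minus strand). Capitals mark CArG boxes and the CRE only.
Egr1: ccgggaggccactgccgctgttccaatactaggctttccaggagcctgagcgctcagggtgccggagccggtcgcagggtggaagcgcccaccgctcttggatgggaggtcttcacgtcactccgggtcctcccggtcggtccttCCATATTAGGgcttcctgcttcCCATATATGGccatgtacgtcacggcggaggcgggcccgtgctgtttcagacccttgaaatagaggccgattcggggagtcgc
Junb: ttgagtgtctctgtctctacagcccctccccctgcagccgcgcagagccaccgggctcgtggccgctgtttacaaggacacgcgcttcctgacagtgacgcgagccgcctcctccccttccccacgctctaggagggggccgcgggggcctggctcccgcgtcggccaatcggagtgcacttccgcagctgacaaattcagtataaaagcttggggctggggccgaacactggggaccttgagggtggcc
Ier2: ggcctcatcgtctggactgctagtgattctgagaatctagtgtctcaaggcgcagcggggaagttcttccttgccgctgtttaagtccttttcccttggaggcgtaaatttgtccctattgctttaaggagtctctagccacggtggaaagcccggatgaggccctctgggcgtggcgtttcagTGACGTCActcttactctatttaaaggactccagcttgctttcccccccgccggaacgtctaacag
Zfp36: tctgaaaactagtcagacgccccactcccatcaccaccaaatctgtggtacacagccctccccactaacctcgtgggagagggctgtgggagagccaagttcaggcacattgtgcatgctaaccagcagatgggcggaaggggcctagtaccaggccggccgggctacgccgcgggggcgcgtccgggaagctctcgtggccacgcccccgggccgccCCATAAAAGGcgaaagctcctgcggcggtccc
Akr1c14: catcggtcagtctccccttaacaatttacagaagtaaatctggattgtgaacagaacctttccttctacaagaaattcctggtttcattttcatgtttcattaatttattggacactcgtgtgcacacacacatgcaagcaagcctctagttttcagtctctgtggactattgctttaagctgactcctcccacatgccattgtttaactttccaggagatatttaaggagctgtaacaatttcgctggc
Egr1 held 2 CArG boxes, starting 105 and 83 bases before the start site, Zfp36 held 1 starting 32 bases before it, and Ier2 held 1 CRE (TGACGTCA) starting 66 bases before it. Junb, the immediate early gene with the smallest p, and Akr1c14 held none of the motifs searched on either strand, which were these, the AP-1 site (TGACTCA or TGAGTCA), the E-box (CACGTG), the GC box (GGGCGG) and the full estrogen response element (GGTCANNNTGACC). Over the 5257 genes tested with a promoter in the table, a CArG box was present in 1.14%, a CRE in 2.74%, an AP-1 site in 3.04%, an E-box in 7.72%, a GC box in 57.2% and the full estrogen response element in 0%. Among the 17 immediate early genes with a promoter, 4 held a CArG box and 3 a CRE, among the former Klf6, whose value was lower. Such matches describe letters in this window and say nothing of binding.

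**Figure D3:**
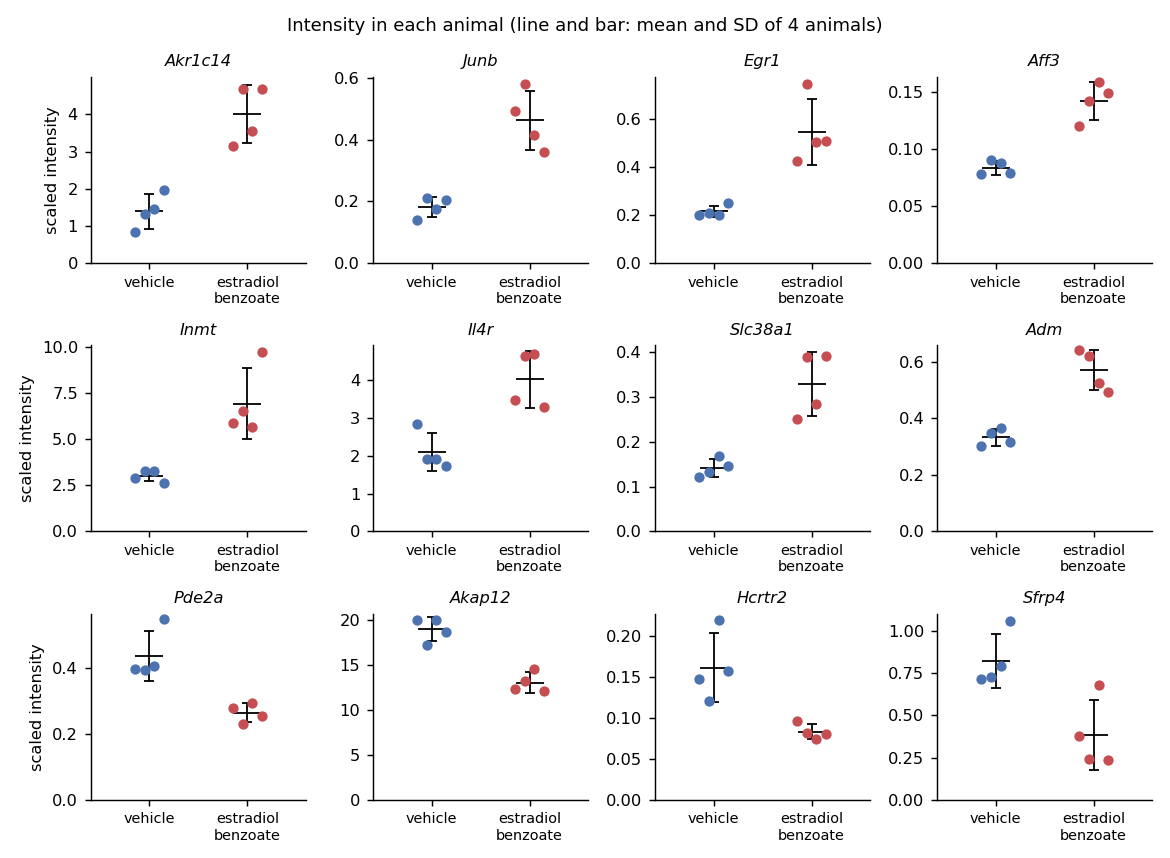
Points are single animals (mean of both arrays, deposited linear intensity on the y axis from 0), blue for vehicle and red for estradiol benzoate, and the line and bar are the mean and SD of 4 animals. In all 12 genes shown the groups do not overlap, as for Akr1c14 with vehicle up to 1.97 and estradiol benzoate from 3.16.

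Genes that set arterial tone differed in both directions, with the clearest values in cyclic nucleotide signalling. Pde2a, a phosphodiesterase that breaks down cyclic AMP and cyclic GMP, measured 0.395, 0.392, 0.404 and 0.548 with vehicle and 0.277, 0.230, 0.294 and 0.254 with estradiol benzoate. Akap12, which anchors protein kinase A and beta-adrenergic receptors, measured 20.0, 17.2, 20.0 and 18.7 with vehicle and 12.3, 13.2, 14.6 and 12.1 with estradiol benzoate. Neither gene's groups overlapped, and vehicle was 1.64-fold and 1.45-fold above estradiol benzoate (adjusted p 0.122 and 0.125). A dimmer Akap12 probe gave -0.32. Gucy1a1, a subunit of the nitric oxide receptor guanylyl cyclase, was lower without overlap at 8.59 to 10.7 with vehicle and 6.40 to 8.19 with estradiol benzoate (-0.36, SE 0.13), and a second probe gave -0.33. In the whole nitric oxide and cyclic nucleotide list of 33 genes, 3 were higher and 5 lower with a median of -0.04. Gch1, which makes the cofactor of nitric oxide synthase, was among the higher ones (1.06, SE 0.36) on a dim probe.

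The angiotensin and kinin list had 6 of 16 genes higher and 0 lower at an unadjusted p under 0.05, with a median of 0.11 (0.09 after quantile normalization). The others were Bdkrb1, Ece1, Ace, Mme and Enpep beside Agt. Agt, angiotensinogen, measured 0.263, 0.450, 0.392 and 0.316 with vehicle and 0.694, 0.718, 0.674 and 0.711 with estradiol benzoate. The treated animals were close together and all above vehicle, by 2.01-fold (SE 0.27, adjusted p 0.191). Agt is made by fat cells as well as liver, and it is also on the white adipocyte list. The peptidases Ace (0.30, SE 0.11), Ece1 (0.34, SE 0.12) and Mme (0.59, SE 0.23), which make angiotensin II and endothelin or break down peptides, overlapped between groups. The list had 3 higher genes without vehicle animal 5 and estradiol benzoate animal 3.

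Vasoactive peptides and their receptors gave 4 higher and 3 lower of 28. Adm, the vasodilator adrenomedullin, measured 0.302, 0.347, 0.366 and 0.315 with vehicle and 0.640, 0.619, 0.526 and 0.494 with estradiol benzoate, 1.71-fold higher without overlap (adjusted p 0.125). Edn1, the vasoconstrictor endothelin 1, measured 0.594 to 0.841 with vehicle and 0.502 to 0.580 with estradiol benzoate (-0.34, SE 0.14), while a dimmer probe gave 0.02. Vipr2, a receptor for the dilator peptide VIP, measured 2.41 to 2.84 with vehicle and 1.39, 1.42, 2.24 and 1.74 with estradiol benzoate, separate but close in animal 5 (-0.62, SE 0.16). Of 26 prostanoid genes, 1 was higher and 2 lower at an unadjusted p under 0.05, with a median of 0.07. In this list 4 were entirely lower and 1 entirely higher, with Ptger1, a prostaglandin E receptor, at -0.41 (SE 0.10) and Hpgd, which inactivates prostaglandins, at -0.54 (SE 0.17) and -0.60 on a second probe. Of 19 adrenergic and muscarinic genes, 3 were higher and 4 lower, among the lower the G protein regulators Rgs5 (-0.49, SE 0.17) and Rgs4 (-0.53, SE 0.19), both without overlap. Potassium channels had 1 higher and 1 lower of 27 and calcium and other cation channels 1 higher and 4 lower of 40, close to background. The lower ones included Cacnb4 (-0.82, SE 0.20) and Cacna1d (-1.40, SE 0.40), subunits of voltage-gated calcium channels, both on dim probes.

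Smooth muscle contractile genes had 1 higher and 2 lower of 17 (median 0.05) and endothelial genes 2 higher and 3 lower of 25 (median -0.03). Angpt2, a ligand that loosens endothelial contacts, was an exception, at 0.423, 0.435, 0.464 and 0.639 with vehicle and 0.758, 0.812, 0.754 and 0.886 with estradiol benzoate (0.73, SE 0.15, adjusted p 0.125). Extracellular matrix genes gave 4 higher and 8 lower of 45, with a median of -0.05 (-0.02 after quantile normalization). Mfap5, a protein of elastic microfibrils, measured 46.2, 40.8, 53.5 and 45.2 with vehicle and 29.0, 34.9, 36.1 and 30.4 with estradiol benzoate, without overlap (-0.51, SE 0.16, adjusted p 0.246). Postn, periostin, measured 49.9, 47.9, 49.1 and 60.9 with vehicle and 28.3, 36.8 and 37.9 in estradiol benzoate animals 2, 3 and 8, with a blank spot in animal 5 (-0.60, SE 0.15, adjusted p 0.187). Fbln2 (-0.39, SE 0.13) and P4ha2, a collagen prolyl hydroxylase, (-0.37, SE 0.11) were lower without overlap too. In the other direction, Omd, a small keratan sulfate proteoglycan, was at 0.74 (SE 0.17) and Plod2, which modifies collagen lysines for crosslinks, at 0.40 (SE 0.10). Col1a1 measured 43.4 to 64.5 with vehicle and 41.0 to 47.1 in the 3 estradiol benzoate animals with a value. Its groups overlapped, with a difference of -0.28 (SE 0.14), and a second bright probe gave -0.38 (SE 0.14).

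Of 32 matrix proteases and inhibitors, 3 were lower without overlap: the gelatinase Mmp2 (-0.45, SE 0.12), the plasminogen activator Plat (-0.48, SE 0.15) and the procollagen protease Bmp1 (-0.36, SE 0.13). Dimmer probes of Mmp2 and Bmp1 gave 0.23 and -0.03. The whole list had 17 positive and 15 negative differences, with 1 higher and 3 lower at an unadjusted p under 0.05. Its median was 0.03 (0.06 after quantile normalization). The TGF-beta and BMP list had 4 higher and 7 lower of 37. Among the lower were Bmpr1a (-0.33, SE 0.10), Bmpr2 (-0.47, SE 0.16) and Smad4 (-0.38, SE 0.13, but 0.01 on a dimmer probe). The median of the TGF-beta and BMP list was -0.05, or 0.01 without vehicle animal 5 and estradiol benzoate animal 3, where 2 were higher and 3 lower. Nog, which binds and blocks BMPs, was the clearest higher member at 0.170, 0.208, 0.268 and 0.163 with vehicle and 0.345, 0.391, 0.399 and 0.356 with estradiol benzoate, 1.88-fold (adjusted p 0.125). Growth factor receptors and binding proteins gave 9 higher and 2 lower of 42 (median 0.11, or 0.08 after quantile normalization), with 5 entirely higher and 0 entirely lower. Among them were Igf1r, the receptor of insulin-like growth factor 1 (0.35, SE 0.09), and the binding proteins Igfbp6 (0.82, SE 0.21) and Igfbp3 (0.56, SE 0.17). Igf1r measured 0.870 to 1.10 with vehicle and 1.20 to 1.37 with estradiol benzoate. A second Igfbp3 probe gave -0.18. Without vehicle animal 5 and estradiol benzoate animal 3, 4 of the list were higher and 0 lower, and the matrix list had 3 higher and 5 lower.

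Genes of lymphocytes were higher in every measured case. All 19 had a positive difference, 8 with an unadjusted p under 0.05 and 3 with separate groups, and the median was 0.44 (0.43 after quantile normalization). Cd8a and Cd8b, the chains of the CD8 co-receptor of cytotoxic T cells, measured 0.0160 to 0.0402 and 0.0378 to 0.0569 with vehicle and 0.0505 to 0.0649 and 0.0668 to 0.0927 with estradiol benzoate. Ccr7, which guides T cells to lymph nodes, measured 0.00827 to 0.0133 with vehicle and 0.0136 to 0.0303 with estradiol benzoate. These 3 probes and 12 of the 19 were among the dimmest 25% of probes. Higher values were also the more frequent among the dimmest 25% of all genes. In such bulk tissue, more cells of a type and more RNA per cell cannot be told apart. Over the list, vehicle animals lay at -0.37, -0.19, -0.54 and -0.09 and estradiol benzoate animals at 0.03, 0.11, 0.37 and 0.16 from the mean of the 12 animals. Without vehicle animal 5 and estradiol benzoate animal 3, 4 of the genes were higher. The interferon and antigen presentation list had 8 higher and 0 lower of 30 (median 0.22), with Ifit3 (0.42, SE 0.14), Irf7 (0.50, SE 0.16) and the peptide transporter Tap1 (0.46, SE 0.16).

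Cytokine and chemokine receptors had 8 higher and 0 lower of 37 (median 0.13), or 3 higher and 1 lower without vehicle animal 5 and estradiol benzoate animal 3. Il4r, the receptor chain for interleukins 4 and 13, measured 2.83, 1.93, 1.92 and 1.73 with vehicle and 3.48, 4.64, 4.68 and 3.28 with estradiol benzoate. Groups were separate, with a 1.92-fold difference (SE 0.17, adjusted p 0.125). Ccr3, the eotaxin receptor of eosinophils, was higher too (0.64, SE 0.14), on a dim probe, as was its ligand Ccl11 (0.57, SE 0.23). Mast cell genes were mixed, with 6 negative and 4 positive differences of 10, among the latter Kit (0.24, SE 0.18) and Tpsb2 (0.12, SE 0.08). At an unadjusted p under 0.05, 0 were higher and 2 lower. The median was -0.24, or -0.10 without vehicle animal 5 and -0.15 without that animal and estradiol benzoate animal 3. The chymases Cma1 and Mcpt4 measured 4.19 to 5.15 and 0.146 to 0.195 with vehicle and 2.82 to 3.78 and 0.0857 to 0.127 with estradiol benzoate, without overlap. Macrophage genes had 2 higher and 0 lower of 19, and the lectin Lgals3 was one of them, at 5.45 to 7.11 with vehicle and 8.04 to 9.54 with estradiol benzoate (0.48, SE 0.10, adjusted p 0.133).

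In the white adipocyte list of 26 genes, 12 were higher and 0 lower at an unadjusted p under 0.05, and 9 of the 24 with all 8 values were entirely higher. The median was 0.38 (0.42 after quantile normalization). Fasn, fatty acid synthase, measured 19.8, 24.8, 10.6 and 19.6 with vehicle and 40.4, 29.7, 25.5 and 33.6 with estradiol benzoate, 1.79-fold higher (SE 0.26, adjusted p 0.245). Vehicle animal 5 was low and estradiol benzoate animal 2 high, and the groups met closely at 24.8 and 25.5. Pc, which feeds the cycle that exports acetyl units, measured 3.09 to 4.11 with vehicle and 4.35 to 7.33 with estradiol benzoate (0.63, SE 0.18), and a second probe gave 0.91. Agpat2, an enzyme of triglyceride assembly (0.41, SE 0.11), and the glycerol channel Aqp7 (0.47, SE 0.14) were separate as well, while Me1, malic enzyme, at 1.08 (SE 0.37) overlapped.

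The 3 adipocyte markers with a probe all overlapped between groups. The adipokine Adipoq measured 23.4 to 29.9 with vehicle and 23.3 to 26.1 with estradiol benzoate (-0.08, SE 0.13). Fabp4 measured 20.8 to 29.2 and 26.7 to 36.1 (0.30, SE 0.13). Lipe measured 0.411 to 0.673 and 0.532 to 0.866 (0.38, SE 0.35), a difference as large as the list median but with a wide SE. Pparg, named after its value was seen, was at 0.11 (SE 0.21). The summed level of the 3 adipocyte markers with a probe was 47.9 to 59.5 with vehicle and 53.6 to 60.3 with estradiol benzoate. The part of fat around the vessel in the list was not tested further. Without vehicle animal 5 and estradiol benzoate animal 3, 5 genes of the list were higher and 0 lower and the median was 0.34.

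Energy metabolism leaned to higher values with small differences. Oxidative phosphorylation and TCA cycle genes had 11 higher and 0 lower of 40, with a median of 0.11 (0.18 after quantile normalization) and 2 entirely higher, Sdhd and Atp5pb, each at 0.28 (SE 0.09). Without vehicle animal 5 and estradiol benzoate animal 3, 5 of the list were higher and 0 lower. Dlat, which is on no list and is the acetyltransferase of the pyruvate dehydrogenase complex, measured 3.74, 4.75, 4.06 and 4.79 with vehicle and 6.99, 6.14, 6.10 and 6.78 with estradiol benzoate, without overlap (0.59, SE 0.11, adjusted p 0.125). Glycolysis and glucose handling had 7 higher and 2 lower of 40 (median 0.18), or 3 and 2 without those animals, with Aldoc, an aldolase, at 0.797, 1.06, 1.11 and 0.780 with vehicle and 1.33, 1.41, 1.35 and 1.64 with estradiol benzoate. Prkaa2, a catalytic subunit of AMP-activated kinase, was lower in the same list at 0.150 to 0.205 with vehicle and 0.114 to 0.132 with estradiol benzoate (-0.52, SE 0.10), on a dim probe. The brown adipocyte and fatty acid oxidation list had 5 higher and 0 lower of 32, with Cidea at 2.83 to 3.67 with vehicle and 4.04 to 5.09 with estradiol benzoate. Ucp1, the defining gene of brown fat, measured 0.291 to 0.369 and 0.351 to 0.397 and overlapped. Among cholesterol and lipoprotein genes, 4 of 33 were higher and 2 lower, with the lipoprotein receptor Vldlr (0.48, SE 0.10) and squalene synthase Fdft1 (0.50, SE 0.13) higher without overlap.

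Amino acid and iron transport held some of the smaller p. Slc38a1, a transporter of glutamine and other neutral amino acids, measured 0.121, 0.132, 0.169 and 0.146 with vehicle and 0.251, 0.389, 0.285 and 0.393 with estradiol benzoate, 2.29-fold higher without overlap (adjusted p 0.122), on a dim probe. Further probes of the gene gave 0.57 and 0.40. Slc40a1, the iron exporter ferroportin, measured 5.76, 5.19, 5.78 and 5.51 with vehicle and 4.06, 3.44, 3.30 and 4.65 with estradiol benzoate (-0.54, SE 0.11, adjusted p 0.129), and Fth1, the ferritin heavy chain, was higher (0.42, SE 0.12). In the list of 73 solute carriers, 9 were higher and 5 lower. Inmt, which methylates indole amines such as tryptamine and belongs to no list, measured 2.92, 3.27, 3.29 and 2.63 with vehicle and 5.85, 6.50, 5.64 and 9.72 with estradiol benzoate. Every treated animal lay well above the highest vehicle animal, at 2.24-fold (SE 0.20, adjusted p 0.122).

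Chromatin and elongation genes had 3 higher and 4 lower of 31 at an unadjusted p under 0.05, and these were also the 3 entirely higher and 4 entirely lower members. Aff3, a scaffold of transcription elongation, had the smallest p of all genes. It measured 0.0783, 0.0902, 0.0878 and 0.0789 with vehicle and 0.120, 0.142, 0.159 and 0.149 with estradiol benzoate, narrow in both groups (0.76, SE 0.11, adjusted p 0.0770), on a dim probe. Polr2i, a subunit of RNA polymerase II, was lower (-0.42, SE 0.09). Ribosomal and translation genes had 21 of 28 negative differences with 2 higher and 2 lower at an unadjusted p under 0.05, and their median of -0.10 became -0.02 after quantile normalization. Proteasome and ubiquitin genes had 2 higher and 4 lower of 46, and their median of -0.03 became 0.03. Of the 45 with all 8 values, 5 were entirely lower and 0 entirely higher. Heat shock and ER chaperones had 3 higher and 1 lower of 42; the lower one, Hspa8, measured 42.6, 39.8, 33.0 and 34.2 with vehicle and 25.7, 26.2, 26.5 and 27.1 with estradiol benzoate (-0.50, SE 0.13, adjusted p 0.191). Mitosis and replication genes had 2 higher and 4 lower of 45 and a median of -0.08. Over that list estradiol benzoate animal 8 lay at -0.41 and animal 2 at 0.15, a wider span than the -0.12 to 0.18 of vehicle.

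Clock genes gave 3 higher and 1 lower of 10, and their median of 0.26 became -0.04 when the dimmest 25% of probes were left out. Bhlhe40, which represses clock targets, measured 0.102, 0.0724, 0.105 and 0.137 with vehicle and 0.173, 0.184, 0.201 and 0.193 with estradiol benzoate (0.88, SE 0.17, adjusted p 0.125), on a dim probe. Dbp, an output factor of the clock, measured 2.58 to 4.38 and 3.91 to 9.63 and overlapped (0.80, SE 0.27), and Bmal1, the activator of the loop, was lower without overlap at 3.63 to 4.09 and 2.30 to 3.34 (-0.36, SE 0.15). The hour at which tissue was taken is not given in the sources used here.

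Receptors of neuropeptides, which are best known from the hypothalamus, held large differences on dim probes. Hcrtr2, an orexin receptor, measured 0.148, 0.120, 0.220 and 0.157 with vehicle and 0.0967, 0.0810, 0.0746 and 0.0807 with estradiol benzoate (-0.93, SE 0.17, adjusted p 0.125). Mc4r, a melanocortin receptor, measured 0.0461, 0.0342, 0.0393 and 0.0277 with vehicle and 0.0177, 0.0134, 0.0250 and 0.0121 with estradiol benzoate (-1.14, SE 0.24, adjusted p 0.125). Both were separate between groups and both were in the dimmest 25% of probes. Among genes, the median SD between animals was 0.289 in the dimmest 25% and 0.149 in the brightest 25%. Mc5r, another melanocortin receptor, was higher (0.70, SE 0.16). In this list of 21, 5 were higher and 3 lower. Nerve and glia genes had 7 higher and 3 lower of 31 (median 0.14), with Mbp, a protein of myelin, at 0.312 to 0.635 with vehicle and 0.807 to 1.15 with estradiol benzoate, although a dimmer Mbp probe gave 0.15.

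The largest differences were found in few and mostly dim genes. A log2 difference beyond 1 in either direction was found for 115 genes, 40 higher and 75 lower. Of these, 88 were in the dimmest 25% of probes, 79 had overlapping groups, and 23 were on the pancreas or hepatocyte lists. Cela1, a pancreatic elastase, measured 0.0414 to 0.0862 with vehicle and 0.131, 11.6, 0.188 and 0.597 with estradiol benzoate, so that animal 3 made most of its difference of 3.32 (SE 1.15). The summed level of the 4 pancreas markers with a probe was 0.154 to 0.357 with vehicle and 0.258, 34.2, 0.548 and 1.79 in estradiol benzoate animals 2, 3, 5 and 8. It was thus above the vehicle range in 3 of the 4 treated animals. In the liver protein Fetub the high animal was vehicle animal 5, at 1.81 beside 0.442, 0.170 and 0.0468 in vehicle animals 3, 4 and 8, with 0.0121 to 0.0398 in estradiol benzoate animals (-3.60, SE 0.92). The summed level of the 4 hepatocyte markers with a probe was 3.47, 2.17, 20.3 and 0.555 in vehicle animals 3, 4, 5 and 8. It was 0.344 to 0.627 with estradiol benzoate, so vehicle animals 3, 4 and 5 all lay above that range. Without vehicle animal 5 and estradiol benzoate animal 3, the hepatocyte list still had a median of -0.30, with 1 higher and 7 lower genes. The pancreas list then had a median of 0.41, with 3 higher and 0 lower. Without these animals, 77 genes lay beyond 1, and 258 genes were higher (4.05%) and 264 lower (4.14%) at an unadjusted p under 0.05.

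Single animals also made some large differences in genes of no such list. Myo5b, a motor of vesicle transport, measured 0.0180 to 0.0380 with vehicle and 0.0442, 0.0389, 0.696 and 0.0404 with estradiol benzoate, where animal 5 alone was high. Sycp1, a protein of meiotic chromosomes, measured 0.742 in vehicle animal 5 and 0.0215 to 0.0295 in the other vehicle animals. Dpt, dermatopontin of the connective tissue matrix, was split within the treated group, at 1.09 and 1.37 in estradiol benzoate animals 2 and 3 and 0.179 and 0.157 in animals 5 and 8, against 1.55 to 3.12 with vehicle (-2.14, SE 0.90).

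Over the 53 lists, 36 had a positive and 16 a negative median, and 23 had a median of 0.1 or more in size. None of these 23 changed sign after quantile normalization, after centring on the 75th percentile or without vehicle animal 5 and estradiol benzoate animal 3. Among the smaller medians, 7 of the 53 changed sign after quantile normalization and 8 after centring on the 75th percentile. The lists share genes, and 1329 genes were on at least 1 of them.

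**Figure D4:**
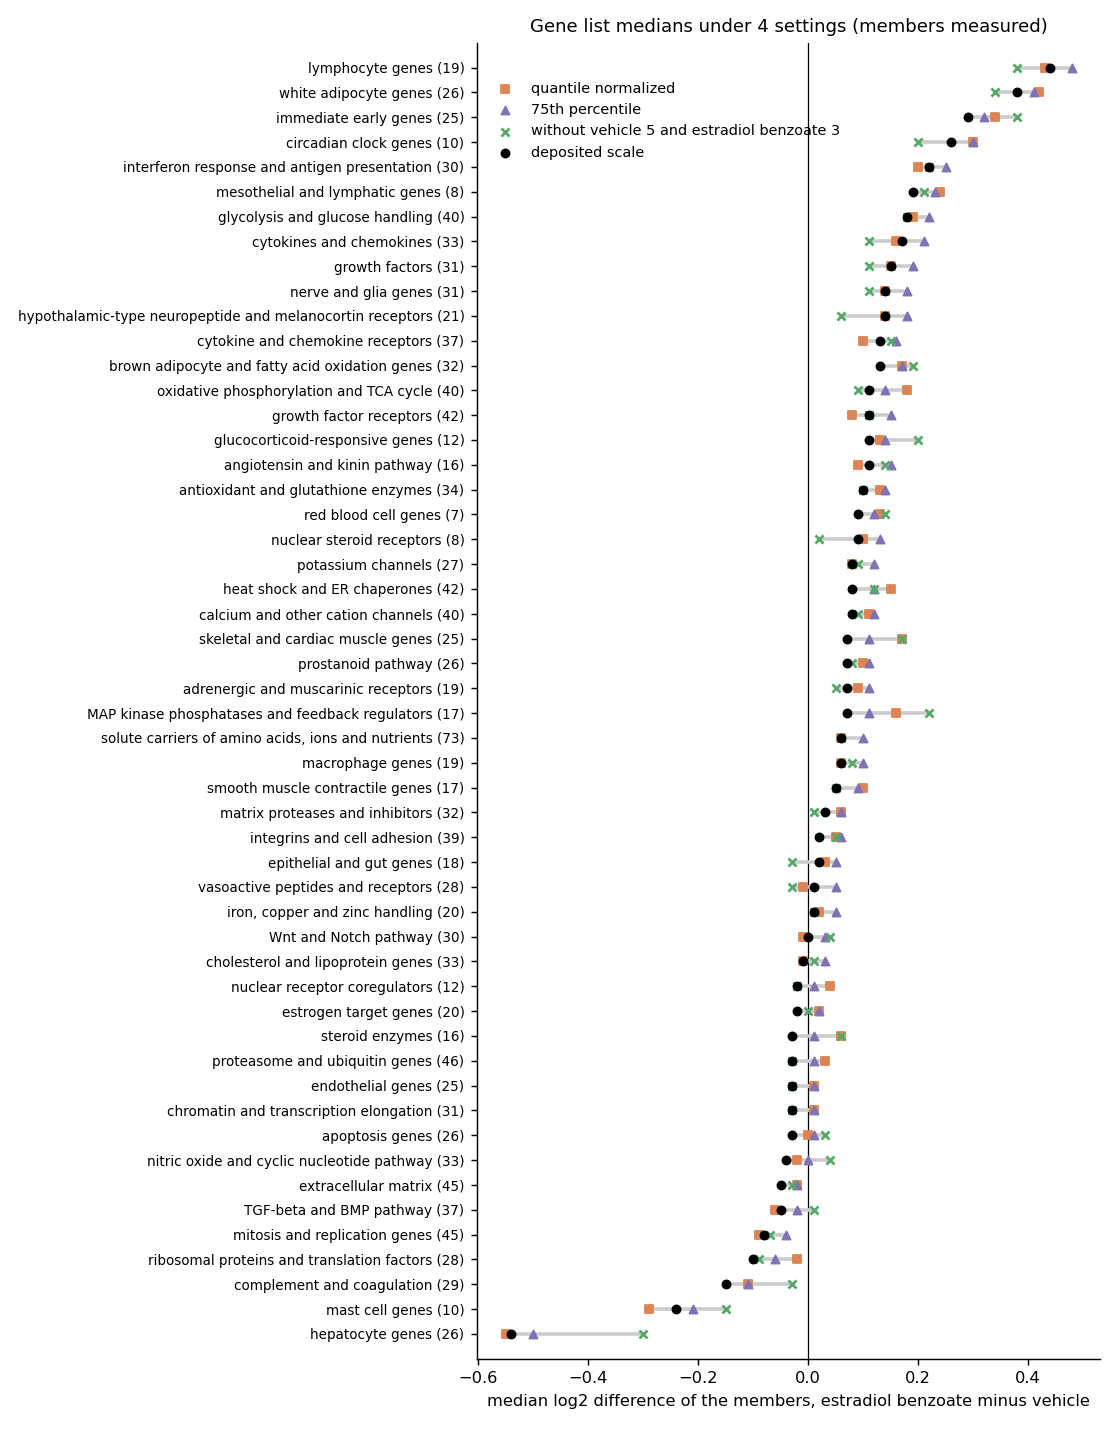
Each row is 1 gene list with the number of members measured in parentheses, and the x axis is the median log2 difference (estradiol benzoate minus vehicle) on the deposited scale (black), after quantile normalization, after centring on the 75th percentile, and without vehicle animal 5 and estradiol benzoate animal 3. Lymphocyte (0.44), white adipocyte (0.38) and immediate early genes (0.29) lie highest and hepatocyte genes (-0.54) lowest; the pancreas list, at 1.71 and at 0.41 without those animals, is outside the range and not drawn.

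**Figure D5:**
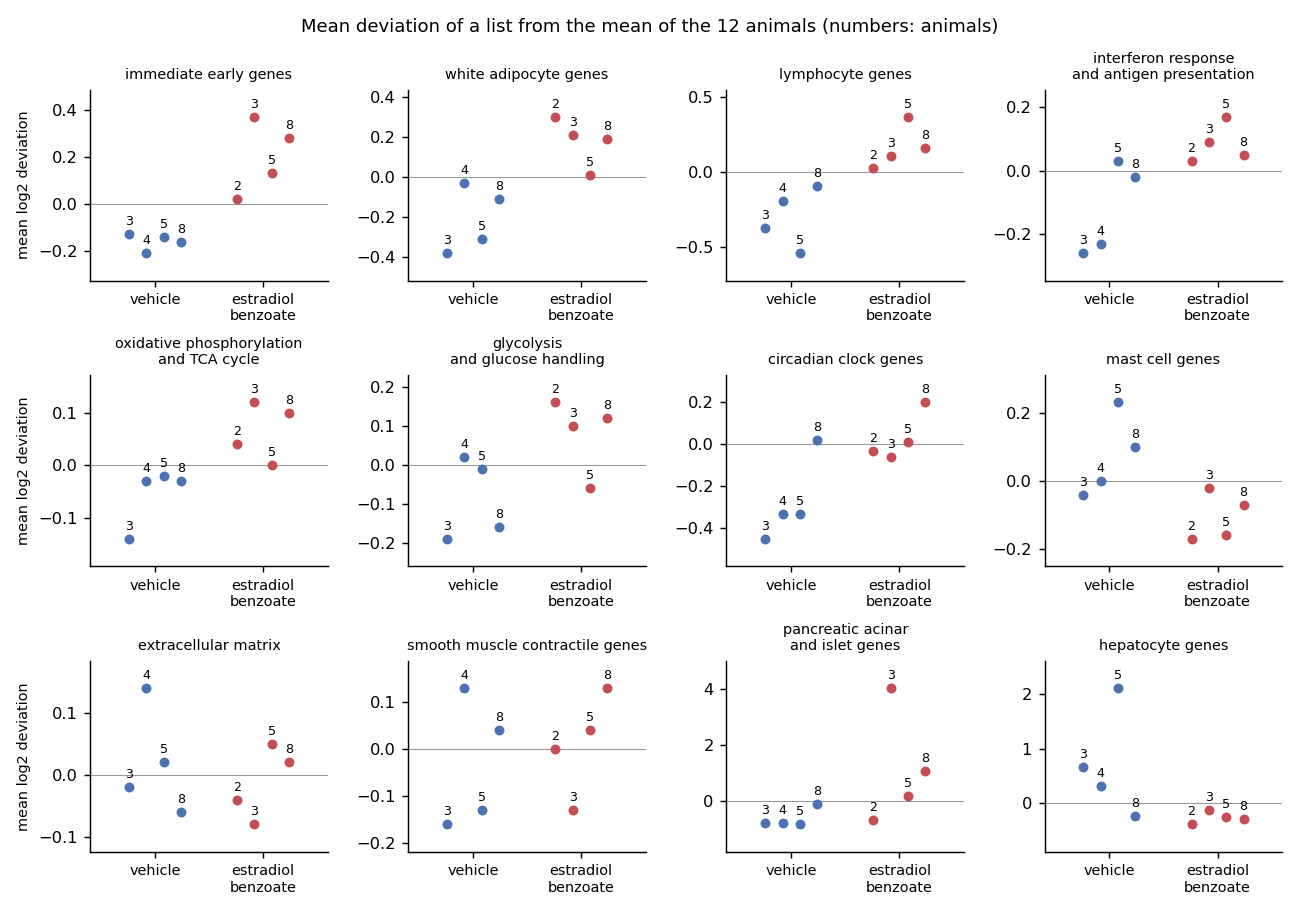
Each point is 1 animal, numbered as in its title, and the y axis is the mean log2 deviation of the list's genes from the mean of the 12 animals. Vehicle (blue) and estradiol benzoate (red) animals do not overlap for immediate early, white adipocyte and lymphocyte genes, estradiol benzoate animal 3 is far above the others for pancreas (4.04), and vehicle animal 5 for hepatocyte genes (2.11).

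Values with testosterone are given beside those with estradiol benzoate, and both hormone comparisons use the same vehicle animals. In a direct contrast of estradiol benzoate and testosterone animals, 3 of the 10228 probes (0.0293%) passed an adjusted p under 0.05 in limma, among them those of Il4r and Aff3. Il4r was higher with estradiol benzoate than with testosterone by 1.31 (SE 0.17, adjusted p 0.0431), and Aff3 by 0.77 (SE 0.11, adjusted p 0.0461). Against vehicle, testosterone gave -0.36 for Il4r, whose estradiol benzoate value was 0.94. Both calls were lost when the contrast was fitted on the 8 hormone-treated animals alone. Set side by side, the values with estradiol benzoate and with testosterone were -0.71 and -0.76 for Pde2a, -0.93 and -0.95 for Hcrtr2, 0.67 and 0.66 for Lysmd2 and 1.33 and 1.11 for Junb. The shared vehicle animals enter both values of each gene, and nothing about a common response follows from their likeness. For the clock genes the values were 0.88 and 1.22 for Bhlhe40, 0.80 and 1.96 for Dbp and -0.36 and -1.21 for Bmal1. The testosterone values of these 3 genes passed in limma (adjusted p 0.0297, 0.0297 and 0.0282), and their direct contrasts of -0.34, -1.17 and 0.85 did not (adjusted p 0.999, 0.337 and 0.219). For Akr1c14 the values were 1.57 and 0.36, for Inmt 1.16 and 0.13 and for Slc38a1 1.20 and 0.25; the direct contrasts of 1.20, 1.03 and 0.95 did not pass in limma (adjusted p 0.285, 0.285 and 0.293). Medians under testosterone were 0.16 for immediate early, 0.39 for lymphocyte and 0.29 for white adipocyte genes, beside 0.29, 0.44 and 0.38 with estradiol benzoate.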

How the data were processed

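The study measured mesenteric artery cRNA on 24 one-colour CodeLink arrays, 2 technical arrays (AA and AB) of each of 12 animals, 4 per group. Each deposited value is a linear intensity, and array medians near 1 show that the authors scaled it. How spots were scanned, background-corrected, scaled and filtered: not given in the sources used here. Per the labels' protocols, 10 µg of cRNA from 2 µg of RNA met each array over 18 h. Values at or below 0 were treated as missing, log2 was taken, and both arrays of an animal were averaged. A group-means model was fitted to all 12 animals with limma 3.58.1 in R 4.3.3 (two-sided, Benjamini-Hochberg over 10228 probes) and tested on simulated data. P-values measure the spread between these animals only, and their number, 4 per group, limits the precision. Of 10399 probes, 7294 had a single symbol in the platform annotation, 88 several and 3017 none; 7284 were matched to RefSeq by gene ID, which changed 0 symbols.

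Genes were named by rule: in each direction the 15 with the smallest p and the 15 largest differences with separate groups, up to 6 members with the smallest p per list, steroid receptors and markers. Exceptions are marked. Members and gene lists were chosen with earlier results of these data known. Lists carry no test. Alternatives covered scaling, filters, missing values, technical arrays, model settings, pairing and single animals.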

Additional observations from a re-analysis of the deposited data

Results flagged for a closer look

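Within a group of 4 animals, a single animal was set apart from the other 3 when its gap to the nearest of them exceeded the share of the group's range set by Dixon's 95% critical value. Chance marks about 1 in 20 groups in this way, and no cause was weighed. Values are log2 intensities of that animal.

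Vehicle animals stood apart in Tgfa (-3.66, animal 4), Zfp36 (0.89, animal 4), Sycp1 (-0.43, animal 5), Bmal1 (2.03, animal 5), Cd8b (-4.73, animal 5, low) and Igfbp6 (0.20, animal 3, low). Vehicle animal 8 stood apart in Fos (2.13), Pde2a (-0.87), Omd (1.91), Postn (5.93) and Bmpr1a (2.18), high in each. Estradiol benzoate animals stood apart in Esr1 (-2.17, animal 2, high), Myo5b (-0.52, animal 5, high), Mme (-2.42, animal 5, low), Gper1 (-4.18, animal 3, low), Pecam1 (4.55, animal 3, low) and Igf1r (0.45, animal 8, high).

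For list means, as deviations from the mean of the 12 animals, estradiol benzoate animal 2 stood apart in vasoactive peptides and receptors (0.10) and animal 5 in antioxidant and glutathione enzymes (-0.08). Among vehicle animals these were animal 3 in oxidative phosphorylation and TCA cycle genes (-0.14), animal 4 in solute carriers (0.01), and animal 8 in pancreatic genes (-0.13) and in chromatin and elongation genes (-0.08).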

How the results depend on the processing

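No probe passed in limma on the deposited scale, where 1376 probes had an unadjusted p under 0.05. No probe passed either after quantile normalization, after centring on the 75th percentile, with array weights or on the AB arrays alone. Leaving out the dimmest 25% of probes gave 3 calls, Akr1c14 and Junb among them, as did an intensity trend with a robust prior. Only probes with a value on all 24 arrays gave 2, and the AA arrays alone 1. Treating the 24 arrays as samples with the animal as a random block gave 226, and the cause was not tested. Leaving out single animals gave 0 to 2 calls, 462 to 819 higher and 454 to 837 lower probes at an unadjusted p under 0.05, and 284 to 467 higher and 344 to 611 lower genes with separate groups, a condition that fewer animals meet more easily. Without vehicle animal 5 and estradiol benzoate animal 3, 392 probes were higher, and 446 genes were entirely higher and 502 entirely lower. Entirely higher genes numbered 156 without the dimmest 25% and 151 with probes complete on all arrays, where fewer genes were tested. In the contrast of both hormones, 0 named genes passed with only the 8 hormone-treated animals. Deviations of same-numbered animals from their group means had low correlations (-0.06, 0.05 and 0.11 for numbers 3, 5 and 8). With so few shared numbers, these values cannot settle whether the numbers pair animals. The replicate block gave 0 calls with 625 higher and 624 lower probes. Of 166 named genes and list medians, 25 changed sign under at least 1 setting, leaving aside Esr1 and the Wnt and Notch median, which were at 0 to 2 decimals: the genes Adipoq and Pecam1, and 23 list medians, all of a size under 0.1 except that of the clock genes, which did so in 2 settings. Many of the genes were named for a small p or separate groups, so that choice largely set their stable sign. A gene with separate groups cannot change sign when an animal is left out. Adipoq and Pecam1 were named as markers instead. With 4 animals per group, small differences could not be told from the spread.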
